A study of Arabidopsis thaliana with 30 samples.

Results

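The phenylpropanoid, flavonoid and anthocyanin pathway was followed through 34 genes, chosen by locus as its enzymes, its transport step and its regulators, of the 27588 genes quantified. They comprised 6 phenylpropanoid entry genes, 5 early flavonoid genes, 7 late anthocyanin genes, 2 flavonoid 3-O-glycosyltransferases and 14 regulators. RNA had been sequenced from rosette leaves of 4-week-old Arabidopsis thaliana of 5 genotypes, each given water or 3 mM bicarbonate from 2 weeks of age, with 3 biological samples in each of the 10 groups. All plants received 10 ml every 2 days. They grew at 21 °C with 16 h of light a day, at 120 µmol per square metre and second. The genotypes were the triple line oePsbS_CA1_CA2, the double line oePsbS_CA1, the PsbS overexpressor oePsbS from which both were made, the PsbS-deficient mutant npq4-1, and the wild type Col-0. PsbS is the photosystem II protein that triggers dissipation of excess light as heat, and beta-carbonic anhydrases (βCA1 and βCA2) interconvert CO2 and bicarbonate. The double line carried βCA1 behind the constitutive cauliflower mosaic virus promoter, and the triple line carried βCA1 and βCA2 behind that promoter and the root-associated rolD promoter. The study had selected 3 independent transformants of each construct, and the labels do not say which of them a library came from. Libraries held between 15346368 and 18326430 estimated reads.

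The altered genes were read first. PsbS transcript lay between 0.12 and 6.28 CPM (counts scaled to library size) in the 6 npq4-1 libraries, against 1366 to 1895 CPM in the 6 Col-0 libraries, and between 3324 and 5592 CPM in the 18 libraries of the overexpressing genotypes. βCA1 reached 10940 to 16800 CPM in 5 of the 6 libraries of the double line, against 2418 to 4188 CPM in oePsbS. The library labelled double line bicarbonate replicate 3 stood apart with 2409 CPM. Differences of members in edgeR that include it and passed adjusted p are therefore given with and without it. Calls under other tests or fits were not recomputed without it. In the line labelled triple, βCA1 (log2 fold change 0.63 ± 0.32 SE, adjusted p = 0.19, edgeR) and βCA2 (0.52 ± 0.10 SE, adjusted p = 0.000922) were not more than 1 log2 unit above oePsbS with water. With bicarbonate neither exceeded oePsbS (βCA1 −0.089 ± 0.31 SE, adjusted p = 0.894, βCA2 −0.0065 ± 0.098 SE, adjusted p = 0.979, edgeR). Rosette mesophyll markers summed to between 63010 and 72170 TPM (a level scaled to transcript length and library size), while 6 root markers summed to at most 0.625 TPM. Floral organ markers varied from 1.5 to 31.2 TPM in sum, and their values are set beside the results below. In whole rosette leaves, fewer cells of a type and less RNA per cell cannot be told apart.

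The pathway starts from phenylalanine. PAL1, PAL2 and PAL4 (phenylalanine ammonia-lyases), C4H (cinnamate 4-hydroxylase) and the 4CL ligases make p-coumaroyl-CoA, which lignin precursors, sinapate esters and flavonoids share. Chalcone synthase TT4 commits it to flavonoids, TT5, TT6 and TT7 carry it on, and FLS1 diverts dihydroflavonols to flavonols. DFR and LDOX lead to anthocyanidins, which UF3GT, UGT75C1, 5MAT and SCPL10 decorate and the glutathione transferase TT19 helps to bring to the vacuole. In rosette leaves the early genes answer mainly to the flavonol MYBs (MYB11, MYB12, MYB111), and the late genes to complexes of an anthocyanin MYB (PAP1, PAP2, MYB113), a bHLH protein (TT8, GL3, EGL3) and the WD40 protein TTG1. MYBL2 and the LBD37, LBD38 and LBD39 proteins repress the late branch.

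Promoter windows are shown for 6 of the enzymes that carried the main genotype difference, because these complexes recognise short DNA elements. LDOX, 5MAT and TT7 carried it too and are not shown, and their windows hold no CACGTG. The windows shown therefore hold CACGTG more often than those of all these enzymes. Each window holds the 250 bases before the annotated start in RefSeq, build TAIR10.1, while the expression files follow TAIR10. TT4 lay at chr5:4488226-4488475, plus strand, TT6 at chr3:19024942-19025191, plus strand and DFR at chr5:17166033-17166282, minus strand. UF3GT lay at chr5:21938397-21938646, minus strand, UGT75C1 at chr4:8123836-8124085, minus strand and TT19 at chr5:5658166-5658415, plus strand. Capitals mark the G-box CACGTG in the first 4 windows and, in the last 2, which hold no G-box, the element ANCNNCC on either strand, where adjacent matches run together.
TT4: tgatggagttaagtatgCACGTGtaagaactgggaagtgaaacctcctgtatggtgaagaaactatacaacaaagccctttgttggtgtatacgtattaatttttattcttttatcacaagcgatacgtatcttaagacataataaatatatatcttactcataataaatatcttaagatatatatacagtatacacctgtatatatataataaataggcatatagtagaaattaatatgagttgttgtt
TT6: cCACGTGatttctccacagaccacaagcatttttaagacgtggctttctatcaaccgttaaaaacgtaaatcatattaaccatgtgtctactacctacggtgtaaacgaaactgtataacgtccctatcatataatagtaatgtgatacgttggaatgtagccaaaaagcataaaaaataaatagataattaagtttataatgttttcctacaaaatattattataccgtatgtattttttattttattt
DFR: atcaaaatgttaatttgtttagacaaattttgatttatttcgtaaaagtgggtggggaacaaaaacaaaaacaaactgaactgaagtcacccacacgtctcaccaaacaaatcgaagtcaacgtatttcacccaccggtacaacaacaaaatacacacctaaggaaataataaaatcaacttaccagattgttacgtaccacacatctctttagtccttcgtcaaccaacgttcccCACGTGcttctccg
UF3GT: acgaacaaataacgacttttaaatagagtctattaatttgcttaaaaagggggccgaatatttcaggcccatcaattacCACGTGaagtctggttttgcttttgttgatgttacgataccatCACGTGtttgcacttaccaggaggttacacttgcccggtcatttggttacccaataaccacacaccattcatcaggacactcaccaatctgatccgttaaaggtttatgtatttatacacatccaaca
UGT75C1: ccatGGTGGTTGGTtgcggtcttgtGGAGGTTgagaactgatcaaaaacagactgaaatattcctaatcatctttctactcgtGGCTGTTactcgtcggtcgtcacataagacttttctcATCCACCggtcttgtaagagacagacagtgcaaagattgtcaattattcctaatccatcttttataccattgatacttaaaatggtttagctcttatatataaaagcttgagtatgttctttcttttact
TT19: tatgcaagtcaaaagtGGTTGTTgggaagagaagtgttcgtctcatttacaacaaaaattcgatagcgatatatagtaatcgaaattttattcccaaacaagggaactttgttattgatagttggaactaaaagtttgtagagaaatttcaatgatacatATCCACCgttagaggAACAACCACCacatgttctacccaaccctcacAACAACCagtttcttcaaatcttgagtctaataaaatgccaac
UF3GT held 2 G-boxes, and the G-box of DFR ended 9 bases before the start. CACGTG was present in 8 of 34 member windows, against 6.49% of 27443 promoters of the same length. These were the windows of PAL4, TT4, TT6, DFR, UF3GT, SCPL10, MYB12 and PAP2. ANCNNCC, counted on both strands, was in 22 of 34, against 48.81% of all promoters, and in all 7 late anthocyanin genes. It occurred 5 times each in UGT75C1 and TT19, where 2 matches of each gene overlap. CANNTG, whose matches include the G-box, was in 21 (55.32% of all promoters), CACNNG, whose matches also include it, in 25 (51.19%), and ACCTACC, a special case of ANCNNCC, in 4CL3 alone (1.16%). These are matches of letters, and no site was tested.

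**Figure D1:**
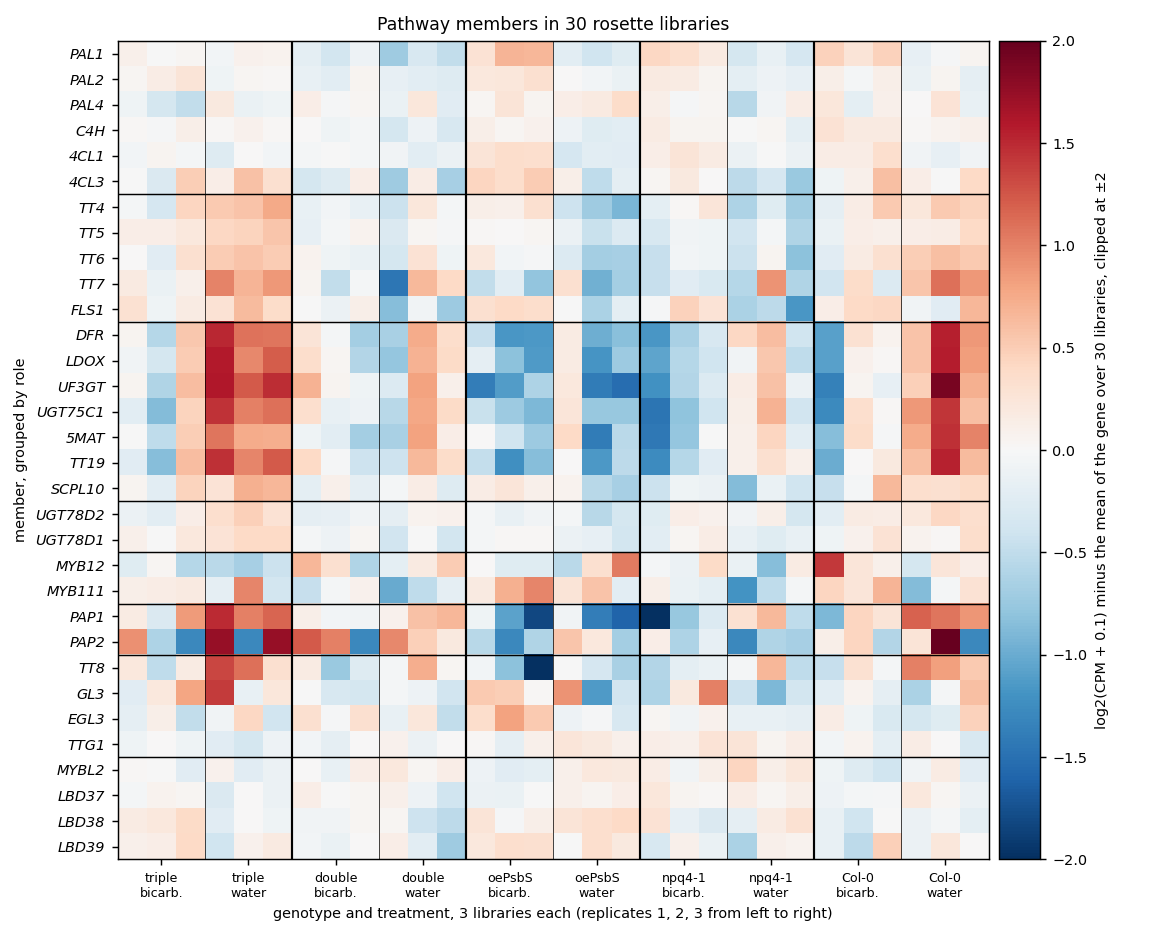
Level of the 32 members tested in all libraries, as log2(CPM + 0.1) minus the mean of each gene over the 30 libraries (colour, clipped at 2 units either way), with members down the page by role and 3 libraries per group across it. The block from DFR to TT19 is red in the triple line with water and in Col-0 with water, and blue in replicates 2 and 3 of oePsbS with water.

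Members differed widely in level. By median TPM over the 30 libraries, which allows for transcript length, TT4 was the most abundant (182 TPM), followed by the repressor MYBL2 (167 TPM) and C4H (86.2 TPM). Late enzymes lay between 2.55 TPM (UF3GT) and 48.7 TPM (SCPL10). The anthocyanin MYB present in quantity was PAP1 (AT1G56650), at a median of 13.2 TPM, against 0.595 TPM for MYB113 (AT1G66370) and 0.273 TPM for PAP2 (AT1G66390). PAP2 had no estimated read in 6 libraries, MYB113 in 3 and MYB11 (AT3G62610) in 7. MYB11 and MYB113 did not pass the filter on low counts, so 32 members were tested across genotypes. PAP1, PAP2 and MYB113 are close relatives, and the split of shared reads among such genes, as between PAL1 and PAL2 or among the SCPL10 tandem copies, was left to the quantification and is uncertain.

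Among the members, those called in oePsbS over Col-0 with water lay in the flavonoid and anthocyanin branch. Of 32 members tested, 10 were called lower in oePsbS and 0 higher (edgeR quasi-likelihood test, adjusted p below 0.05, log2 fold change past 1 either way), when 1.24% of all genes tested were called. The median log2 fold change was −0.41 over the members and 0.00 over all genes. PAP1, the MYB activator, TT4, TT6 (flavanone 3-hydroxylase), TT7 (flavonoid 3′-hydroxylase), and 6 of the 7 late genes made up the 10. The triple line then differed from oePsbS in the opposite direction: 11 members were higher and 0 lower with water, with 1.59% of all genes called. They were the same 10 genes and TT8, the bHLH partner. Both comparisons use the oePsbS water libraries, so the 2 sets of values are given side by side and their likeness is no result. The called members were picked by the test on these same libraries, so groups that lie apart below add no support. The share of all genes apart in this way with water was not computed.

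PAP1 was at 18.9, 13.5 and 15 CPM in the triple line with water, 6.31, 2.48 and 2.11 CPM in oePsbS and 15.2, 14.1 and 12.3 CPM in Col-0. No oePsbS library reached the lowest library of either other genotype. The log2 fold change was 2.14 ± 0.42 SE, adjusted p = 0.00127 for the triple line over oePsbS, and −1.95 ± 0.42 SE, adjusted p = 0.00395 for oePsbS over Col-0 (edgeR). TT4 (AT5G13930) had 387, 397 and 454 CPM in the triple line, 202, 164 and 142 CPM in oePsbS and 313, 387 and 365 CPM in Col-0. Here too the oePsbS libraries lay apart from both, by 1.29 ± 0.18 SE, adjusted p = 6.99e-05 for the triple line over oePsbS and −1.07 ± 0.18 SE, adjusted p = 0.000584 for oePsbS over Col-0. TT6 (AT3G51240), which acts next but one after TT4, was at 54.4, 56.3 and 54.4 CPM in the triple line, 31.6, 23.7 and 23.9 CPM in oePsbS and 53.7, 57.5 and 54.9 CPM in Col-0. Its replicates in the triple line and in Col-0 were close to each other, and the differences were 1.06 ± 0.18 SE, adjusted p = 0.000333 for the triple line over oePsbS and −1.07 ± 0.18 SE, adjusted p = 0.000495 for oePsbS over Col-0.

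DFR (AT5G42800), dihydroflavonol reductase, had 62.5, 46.3 and 46.1 CPM in the triple line with water, 24.4, 11 and 12.1 CPM in oePsbS and 32.4, 64.3 and 39.8 CPM in Col-0. LDOX (AT4G22880), the next enzyme, had 52.9, 34.2 and 41 CPM in the triple line, 19.8, 7.7 and 10.6 CPM in oePsbS and 26.3, 52.5 and 31.6 CPM in Col-0. In both genes replicate 1 was the highest of oePsbS and replicate 2 by far the highest of Col-0. The oePsbS libraries lay below those of the triple line and of Col-0, which overlapped each other. The triple line exceeded oePsbS by 1.71 (DFR, adjusted p = 0.0035, edgeR) and 1.76 (LDOX, adjusted p = 0.00279) on the log2 scale, and oePsbS over Col-0 was −1.53 (adjusted p = 0.0114) and −1.54 (adjusted p = 0.0103).

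UF3GT (AT5G54060), which adds xylose to the anthocyanin glucoside, had the widest difference among the enzymes, with 10.4, 8 and 9.56 CPM in the triple line, 3.93, 1.21 and 1.11 CPM in oePsbS and 4.73, 12.9 and 5.59 CPM in Col-0. TT19 (AT5G17220) was at 29.8, 21.4 and 25.2 CPM in the triple line, 10.9, 4.79 and 7.5 CPM in oePsbS and 16.4, 31.6 and 16.8 CPM in Col-0. Triple over oePsbS was 2.18 ± 0.44 SE, adjusted p = 0.00161 for UF3GT and 1.72 ± 0.35 SE, adjusted p = 0.00184 for TT19 (edgeR), while oePsbS over Col-0 was −1.91 ± 0.44 SE, adjusted p = 0.00669 for UF3GT and −1.49 ± 0.36 SE, adjusted p = 0.00835 for TT19. In neither gene, both picked by the test on these same libraries, did a library of oePsbS overlap the other genotypes. UGT75C1 (AT4G14090), the 5-O-glucosyltransferase, was at 26.1, 19.2 and 20.7 CPM in the triple line, against 11.3, 5.64 and 5.59 CPM in oePsbS (log2 fold change 1.56 ± 0.37 SE, adjusted p = 0.00636), and was called in oePsbS over Col-0 as well (−1.37). For 5MAT (AT3G29590), the malonyltransferase, oePsbS had 6.12, 1.7 and 3.17 CPM, against 7.87, 12.9 and 9.36 CPM in Col-0 (log2 fold change −1.47 ± 0.39 SE, adjusted p = 0.0163), and the triple line was 1.22 above oePsbS. TT7 (AT5G07990) completed the list, with log2 fold changes of 1.21 for the triple line over oePsbS and −1.21 for oePsbS over Col-0.

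**Figure D2:**
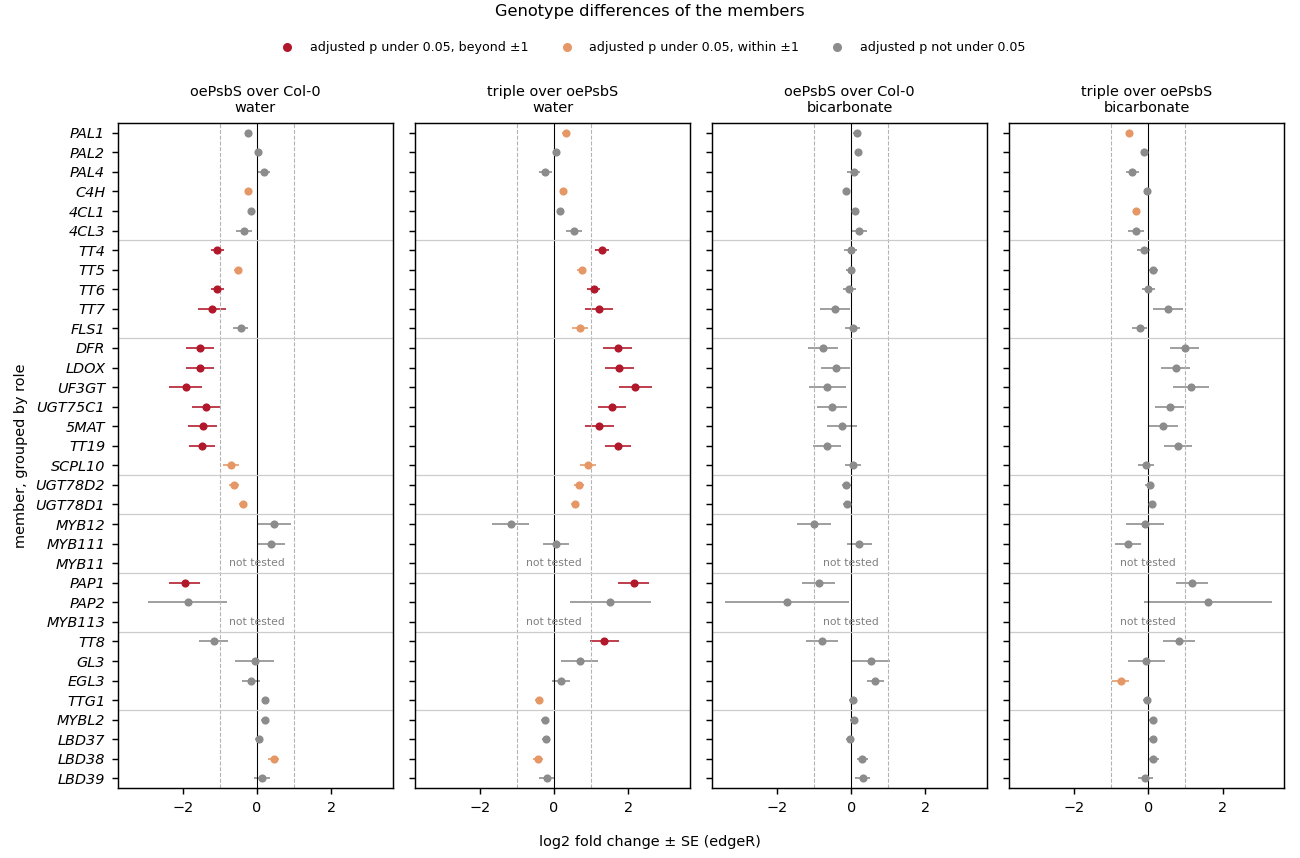
Log2 fold change of each member (points, with SE bars) for oePsbS over Col-0 and for the triple line over oePsbS, with water (left pair) and with bicarbonate (right pair). Red points were called, dashed lines mark a log2 fold change of 1 either way, and called points occur with water only, 10 below zero in oePsbS over Col-0 and 11 above zero in the triple line over oePsbS.

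The rest of the pathway moved less or did not pass the test. TT8 (AT4G09820) was at 4.08, 3.43 and 1.96 CPM in the triple line, 1.55, 1.21 and 0.95 CPM in oePsbS and 3.2, 2.82 and 2.28 CPM in Col-0. The oePsbS libraries lay below the others, which overlapped each other, and the triple line over oePsbS passed (1.35 ± 0.39 SE, adjusted p = 0.0199), with oePsbS over Col-0 at −1.17 ± 0.39 SE, adjusted p = 0.0621 (edgeR). Of the phenylpropanoid entry genes 0 of 6 were called in either comparison. At adjusted p alone, with no fold threshold, 16 members passed in oePsbS over Col-0 (8.56% of all genes) and 20 in the triple line over oePsbS (13.7%). Beyond those called, C4H (AT2G30490) was lower in oePsbS than in Col-0 (−0.25) and the triple line exceeded oePsbS in C4H (0.23) and PAL1 (AT2G37040, 0.32). TT5 (AT3G55120, chalcone isomerase), SCPL10 (AT2G23000, sinapoyltransferase) and the 3-O-glycosyltransferases UGT78D2 (AT5G17050) and UGT78D1 (AT1G30530) passed adjusted p with folds under the threshold in both comparisons. Their log2 fold changes lay between −0.71 and −0.37 for oePsbS over Col-0, and between 0.57 and 0.92 for the triple line over oePsbS. FLS1 (AT5G08640) did so in the triple line over oePsbS alone (0.70), and that the comparisons differ for it was not tested.

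The repressors did not mirror the enzymes in size. MYBL2 (AT1G71030) was at 123, 99.6 and 107 CPM in the triple line with water, 125, 135 and 134 CPM in oePsbS and 111, 129.8 and 99.8 CPM in Col-0. The oePsbS libraries lay just above those of the triple line and overlapped those of Col-0, and neither difference passed (−0.26 ± 0.10 SE, adjusted p = 0.102 for the triple line over oePsbS, 0.21 ± 0.10 SE, adjusted p = 0.24 for oePsbS over Col-0, edgeR). LBD38 (AT3G49940) was the member higher in oePsbS than in Col-0 at adjusted p under 0.05, at 27, 28.6 and 29.8 CPM, against 20.9, 22 and 19.8 CPM (0.45). In the triple line it lay below oePsbS (−0.43), as did TTG1 (AT5G24520, −0.40). LBD37 (AT5G67420) and LBD39 (AT4G37540) did not pass in either comparison. Nor did the flavonol MYBs MYB12 (AT2G47460) and MYB111 (AT5G49330), the bHLH genes GL3 (AT5G41315) and EGL3 (AT1G63650), PAP2, 4CL1 (AT1G51680), 4CL3 (AT1G65060), PAL2 (AT3G53260) or PAL4 (AT3G10340).

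How much these calls rest on single libraries differed by gene. In oePsbS over Col-0, leaving out Col-0 replicate 2, oePsbS replicate 2 or oePsbS replicate 3 left 3 members called in each case, against 10 with all libraries, while the other 3 omissions left 9 or 10. PAP1 and TT6 were called in every omission, TT4 in 5 of 6, and in those 3 omissions no late gene was called apart from TT19 without oePsbS replicate 3. TT7 stayed called there in 1 of 6. In the triple line over oePsbS the count stayed between 8 and 13 in the 6 omissions. PAP1, TT4, TT6, DFR, LDOX, UF3GT, TT19 and UGT75C1 were called in each of these. The other calls held less well: 5MAT and TT7 stayed called in 1 of 6 omissions each, and TT8 in 2 of 6. The late genes also shared their order of replicates. Over DFR, LDOX, UF3GT, UGT75C1, 5MAT, TT19, SCPL10 and PAP1, replicate 1 was the highest of oePsbS with water for 8 of 8 genes, and replicate 2 was the highest of Col-0 with water for 6 of 8 and of npq4-1 with water for 8 of 8.

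Markers of other tissues and turnover factors were read beside these results. The 7 floral organ markers summed to 6.71 to 8.07 TPM in the triple line with water, 12.9 to 31.2 TPM in oePsbS and 5.32 to 20.9 TPM in Col-0. SEP2 and SEP1, MADS-box genes of flower development, were called in the triple line over oePsbS, both lower (−2.99 and −1.50), and 6 of 7 floral markers had negative values there, with a median log2 fold change of −2.08. In oePsbS over Col-0 0 of 7 were called (edgeR), but 6 of 7 had positive values with a median of 1.60, and 4 passed unadjusted p with a fold past the threshold. The part of floral tissue in the pathway result was not tested. Of the 6 seed coat markers, which include the proanthocyanidin gene BAN, 5 stayed under 1 TPM in every library. Mesophyll (0 of 6) and xylem (0 of 5) markers were not called in either comparison. Of 9 other flavonoid modification genes, 3AT1 and 3AT2, anthocyanin coumaroyltransferases, exceeded oePsbS in the triple line (1.44 and 1.79), and 3AT1 was lower in oePsbS than in Col-0 (−1.62). KFB01, an F-box protein that targets PAL enzymes for degradation, went the other way, at 5.11, 3.2 and 4.63 CPM in the triple line, 6.96, 9.88 and 10.3 CPM in oePsbS and 3.2, 5.46 and 3.25 CPM in Col-0. KFB01 fell below oePsbS in the triple line (log2 fold change −1.08 ± 0.32 SE, adjusted p = 0.0235) and was higher in oePsbS than in Col-0 (1.19 ± 0.32 SE, adjusted p = 0.0181, edgeR). None of the 13 monolignol genes tested was called in either comparison, and of 5 sinapate ester genes SCPL9 alone was called, higher in the triple line (1.40 over oePsbS). Of the light and age regulators (14 tested), other MYB repressors (8), trichome genes of the same complexes (4) and nitrate-induced genes (7), 0 were called in either comparison.

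In the remaining comparisons with water no member was called. For the double line, 0 members were called over oePsbS (0.711% of all genes called) and 0 over Col-0 (0.0421%). PAP1 had 7.07, 10.1 and 10.5 CPM in the double line with water, above all 3 oePsbS libraries and below all 3 Col-0 libraries. Neither difference passed (1.37 ± 0.43 SE, adjusted p = 0.0583 for the double line over oePsbS, −0.59 ± 0.38 SE, adjusted p = 0.721 over Col-0, edgeR). TT4 had 200.4, 313 and 262 CPM, and its difference from oePsbS passed adjusted p alone (0.61 ± 0.18 SE, adjusted p = 0.045), as 2 members did (5.75% of all genes). With a threshold on unadjusted p in place of adjusted p, 2 members passed over oePsbS (1.74% of all genes) and 0 over Col-0, and DESeq2 called 0 in both. Outside the members, KFB01 (−1.08 ± 0.32 SE, adjusted p = 0.0418) and the floral marker SEP2 (−2.78 ± 0.83 SE, adjusted p = 0.0465) were called lower in the double line over oePsbS. All 7 floral markers had negative values there (median −2.43), 5 of them past unadjusted p and the fold, and summed to 3.06 to 11.6 TPM in the double line, against 12.9 to 31.2 TPM in oePsbS. Their part was not tested. DFR (13.9, 36.6 and 27.8 CPM) and MYBL2 (134, 119 and 128 CPM) of the double line overlapped oePsbS, at 0.73 and −0.05. LBD38 was lower in the double line than in oePsbS (−0.62 ± 0.14 SE, adjusted p = 0.011). In the triple line over Col-0, 0 members were called by edgeR or DESeq2, 0 at unadjusted p, and 0.0211% of all genes, with log2 fold changes of 0.19 for PAP1, 0.22 for TT4, 0.18 for DFR and −0.04 for MYBL2. The SE of these values reached 0.37 (PAP1). A call needed a log2 fold change past 1, so smaller differences could not be called and larger ones could be missed.

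In npq4-1 over Col-0 with water 0 members were called by edgeR or DESeq2, with 0.158% of all genes called and 2 members past unadjusted p (1.73% of all genes). Without npq4-1 replicate 2, TT4, TT6 and FLS1 were called, and without Col-0 replicate 2 FLS1 was. At adjusted p alone 4 members passed, all flavonoid enzymes and all lower (0.705% of all genes). TT4 had 174, 228 and 166 CPM in npq4-1, against 313, 387 and 365 CPM in Col-0 (log2 fold change −0.91 ± 0.18 SE, adjusted p = 0.0208, edgeR). TT6 (−0.90), FLS1 (−0.94) and TT5 (−0.57) did likewise. The libraries did not overlap for any of the 4 genes, which were picked by the test on these same libraries. How many of all genes lay apart like this was not computed. PAP1 was at 8.19, 10.4 and 4.63 CPM in npq4-1 (−0.84 ± 0.39 SE, adjusted p = 0.279) and DFR at 29.1, 33.5 and 16.6 CPM (−0.79 ± 0.37 SE, adjusted p = 0.287). MYBL2 was at 158, 126 and 137 CPM, with 2 libraries above and 1 within the range of Col-0 (0.31 ± 0.10 SE, adjusted p = 0.135). Among floral markers AG was called lower in npq4-1 (−1.76), all 7 had negative values (median −1.22), and they summed to 1.5 to 8.83 TPM in npq4-1, against 5.32 to 20.9 TPM in Col-0. Their part was not tested.

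**Figure D3:**
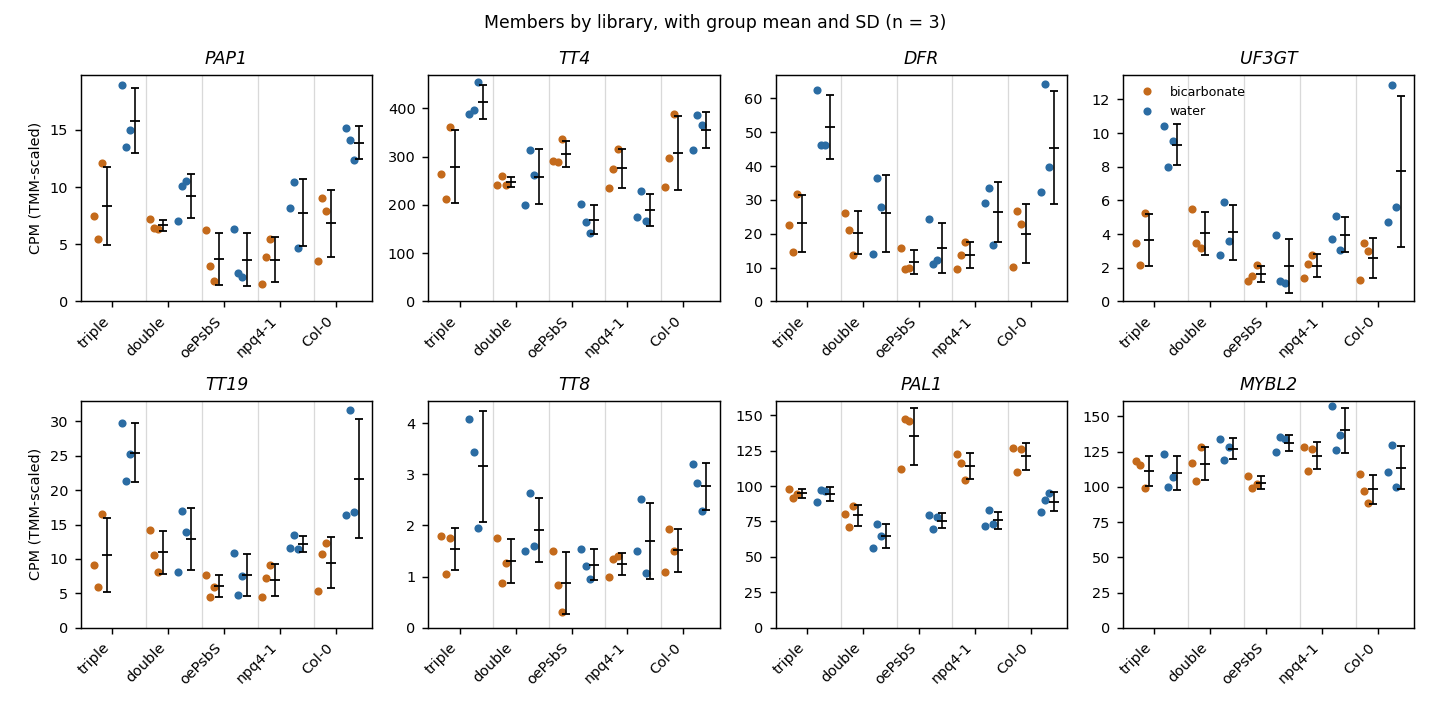
CPM of 8 members in each library (points, on an axis from 0), with the group mean and SD (n = 3) beside them, for 5 genotypes with bicarbonate (orange) and water (blue). With water, PAP1 of oePsbS lies between 2.11 and 6.31 CPM and that of Col-0 between 12.3 and 15.2 CPM, whereas PAL1 is highest in oePsbS with bicarbonate, between 112 and 147 CPM.

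With bicarbonate no member was called between genotypes by edgeR. The share of all genes called was 1.88% for the triple line over oePsbS, 3.16% for the double line over oePsbS, 1.18% for the triple line over Col-0, 0.974% for the double line over Col-0, 0.0579% for oePsbS over Col-0 and 0.0211% for npq4-1 over Col-0. At unadjusted p with the same fold, 2, 1, 1, 0, 1 and 0 members passed in that order of comparisons, where 3.06%, 4.35%, 2.11%, 2.06%, 0.995% and 0.758% of all genes did. DESeq2 called UF3GT in the double line over oePsbS (3.14% of all genes) and 0 members elsewhere. PAP1 had 7.45, 5.42 and 12.1 CPM in the triple line, 7.23, 6.41 and 6.31 CPM in the double line, 6.24, 3.1 and 1.81 CPM in oePsbS, 1.56, 3.91 and 5.5 CPM in npq4-1 and 3.5, 9.01 and 7.94 CPM in Col-0. The oePsbS and Col-0 ranges overlapped (−0.88 ± 0.44 SE, adjusted p = 0.417), as did those of the triple line and oePsbS (1.17 ± 0.43 SE, adjusted p = 0.0918). TT4 was at 263, 213 and 361 CPM in the triple line, 242, 259 and 242 CPM in the double line, 290.3, 288 and 336 CPM in oePsbS, 235, 274 and 317 CPM in npq4-1 and 238, 297 and 388 CPM in Col-0. All pairs of genotypes overlapped except the double line and oePsbS, and oePsbS over Col-0 was −0.01 ± 0.18 SE, adjusted p = 0.985.

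DFR with bicarbonate had 22.7, 14.7 and 31.8 CPM in the triple line, 26.2, 21.2 and 13.7 CPM in the double line, 15.8, 9.71 and 9.76 CPM in oePsbS, 9.68, 13.8 and 17.4 CPM in npq4-1 and 10.2, 26.9 and 23 CPM in Col-0. Its largest difference was the triple line over oePsbS (0.97 ± 0.40 SE, adjusted p = 0.131, edgeR), which did not pass. MYBL2 was at 119, 116 and 98.9 CPM in the triple line, 117, 104 and 128 CPM in the double line, 108, 98.9 and 102 CPM in oePsbS, 128, 111 and 127 CPM in npq4-1 and 109, 97.2 and 88.6 CPM in Col-0, and no contrast passed. At adjusted p alone 3 members passed in the triple line over oePsbS (8.5% of all genes), 3 in the double line over oePsbS (19.5%) and 2 in the double line over Col-0 (2.38%). Over oePsbS these counts are near (triple line) or below (double line) the share of all genes. Most of these members were entry genes. PAL1 was lower in the triple line over oePsbS (−0.51 ± 0.10 SE, adjusted p = 0.0019), and in the double line over oePsbS (−0.77 ± 0.10 SE, adjusted p = 4.45e-05) and over Col-0 (−0.61 ± 0.10 SE, adjusted p = 0.00214). 4CL1 was lower in both lines than in oePsbS (−0.33 triple, −0.34 double), PAL2 in the double line (−0.35), EGL3 in the triple line (−0.75), and C4H in the double line relative to Col-0 (−0.26). Outside the members, MYB7, a repressor of flavonol genes, and SCPL9 were called higher in the double line than in oePsbS (1.02 and 1.04). Without the library labelled double line bicarbonate replicate 3, 0 members were called in both contrasts of the double line. At adjusted p alone 4 then passed over oePsbS, PAL1 (−0.83), PAL2 (−0.43), 4CL1 (−0.34) and 4CL3 (−0.74). That count is again no more than the share of all genes (15.4%). Over Col-0 PAL1 alone did (−0.67, 0.405% of all genes), and C4H did not (−0.26, adjusted p = 0.123, edgeR). MYB7 (1.17) and SCPL9 (1.25) were still called over oePsbS.

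The bicarbonate response was tested within each genotype, from its own 6 libraries. In the triple line 4 of 30 members tested were called, all lower with bicarbonate, with 1.31% of all genes called. LDOX had 16.7, 13.8 and 25.1 CPM with bicarbonate, against 52.9, 34.2 and 41 CPM with water (log2 fold change −1.19 ± 0.22 SE, adjusted p = 0.021, edgeR). DFR (22.7, 14.7 and 31.8 CPM, against 62.5, 46.3 and 46.1 CPM) differed by −1.15 ± 0.23 SE, adjusted p = 0.0357. UF3GT (3.49, 2.18 and 5.24 CPM, against 10.4, 8 and 9.56 CPM) differed by −1.35 ± 0.26 SE, adjusted p = 0.0289. UGT75C1 (8.24, 5.18 and 13 CPM, against 26.1, 19.2 and 20.7 CPM) differed by −1.31 ± 0.27 SE, adjusted p = 0.0373. All 4, picked by the test on these same libraries, had their treatments apart, and in all of them replicate 3 was the highest with bicarbonate. How many of all genes had their treatments apart was not computed. The 7 floral markers summed to 9.64 to 22.6 TPM with bicarbonate, against 6.71 to 8.07 TPM with water, with no overlap. Of the 5 tested 0 were called (edgeR), 4 had positive values (median 1.06) and 2 passed unadjusted p with the fold, and their part was not tested. TT7 passed adjusted p with a smaller fold (−0.80), where 2.01% of all genes pass adjusted p alone, TT19 was at −1.26 ± 0.29 SE, adjusted p = 0.0632, and PAP1 at −0.91 ± 0.25 SE, adjusted p = 0.121. These 4 calls rest on few libraries: without bicarbonate replicate 3 the count was 7, without any 1 of the other 5 libraries it was 0 or 1, and in the model of all 30 libraries TT19 was called in their place.

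In oePsbS 0 of 30 members were called by edgeR or DESeq2, and 0 at unadjusted p, with 1.34% of all genes called. At adjusted p under 0.05 with smaller folds, 10 members were higher with bicarbonate and 1 lower, where 15.4% of all genes pass adjusted p alone. They were 5 of the 6 entry genes, TT4, TT6, FLS1, SCPL10 and EGL3, with MYBL2 lower. PAL1 was at 112, 147 and 146 CPM with bicarbonate, against 79.3, 69.6 and 78 CPM with water (log2 fold change 0.85 ± 0.11 SE, adjusted p = 0.0014, edgeR). TT4 was at 290.3, 288 and 336 CPM, against 202, 164 and 142 CPM (0.86 ± 0.12 SE, adjusted p = 0.00186), and 4CL1 at 123, 132 and 129.5 CPM, against 81.4, 89.1 and 88 CPM (0.58 ± 0.07 SE, adjusted p = 0.00105). MYBL2 was at 108, 98.9 and 102 CPM with bicarbonate, against 125, 135 and 134 CPM (−0.34 ± 0.07 SE, adjusted p = 0.00857). The libraries of both treatments were apart for all 11, which were picked by the test on these same libraries. The share of all genes apart in this way was not computed. The other late genes and PAP1 did not pass: DFR was at −0.42 ± 0.29 SE, adjusted p = 0.356 and PAP1 at 0.05 ± 0.47 SE, adjusted p = 0.962. KFB01 was lower with bicarbonate (log2 fold change −1.02 ± 0.21 SE, adjusted p = 0.0117). The floral markers SEP2 (−1.60) and SEP3 (−1.21) were lower too, and the 7 summed to 9.95 to 13.5 TPM with bicarbonate, against 12.9 to 31.2 TPM with water. Their part in the response was not tested.

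**Figure D4:**
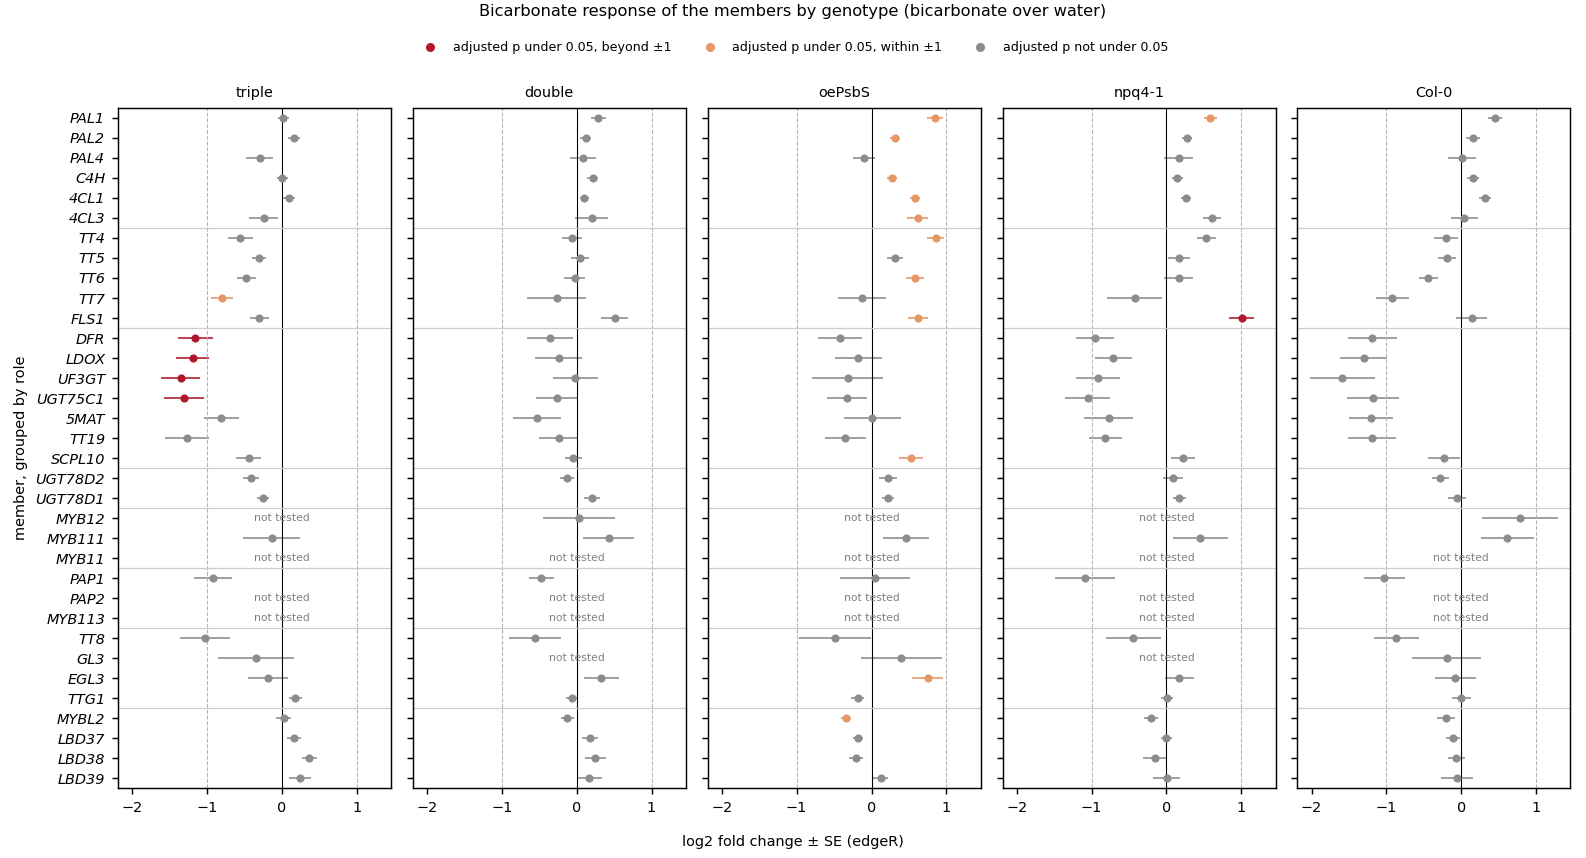
Log2 fold change of bicarbonate over water for each member (points, with SE bars) in the triple line, double line, oePsbS, npq4-1 and Col-0. Red points were called, DFR, LDOX, UF3GT and UGT75C1 in the triple line and FLS1 in npq4-1, and orange points passed adjusted p with a smaller fold, most of them in oePsbS.

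In npq4-1 FLS1, flavonol synthase, was the 1 of 29 members called, with 0.252% of all genes called. It had 24.2, 33.7 and 29.6 CPM with bicarbonate, against 15.7, 17 and 10.8 CPM with water (log2 fold change 1.01 ± 0.17 SE, adjusted p = 0.0288, edgeR), with no overlap. PAL1 passed adjusted p alone (0.59), as 1.06% of all genes did. The FLS1 call was lost when any 1 of 5 of the 6 libraries was left out. Among floral markers SEP1 was called higher with bicarbonate (2.59) and all 7 had positive values (median 1.93). They summed to 12.6 to 21.6 TPM with bicarbonate, against 1.5 to 8.83 TPM with water, and their part was not tested. In Col-0 0 of 31 members were called by edgeR, with 0.313% of all genes called. Its late genes had log2 fold changes from −1.59 (UF3GT) to −0.23 (SCPL10), and 7 members passed unadjusted p with a fold beyond the threshold, as 1.31% of all genes did. DESeq2 called 3, PAP1, UF3GT and 5MAT, all lower, and 0.538% of all genes. The floral markers of Col-0 summed to 10.8 to 23.2 TPM with bicarbonate, against 5.32 to 20.9 TPM with water, and 0 of 7 were called. Of these markers 6 had positive values (median 0.93), and their part was not tested. DFR in Col-0 had 10.2, 26.9 and 23 CPM with bicarbonate, against 32.4, 64.3 and 39.8 CPM with water (−1.19 ± 0.33 SE, adjusted p = 0.238), and the treatments did not overlap. In the double line 0 of 30 members were called by edgeR or DESeq2, 0 at unadjusted p, with 0.775% of all genes called, and 0 remained called without the library labelled bicarbonate replicate 3. PAP1 there was at 7.23, 6.41 and 6.31 CPM with bicarbonate, against 7.07, 10.1 and 10.5 CPM with water (−0.47 ± 0.17 SE, adjusted p = 0.228).

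Whether the responses differ between genotypes was tested as the difference of 2 responses in the model of all libraries. For the triple line minus oePsbS 2 of 32 members were called, both lower, with 3.12% of all genes called. TT4 differed by −1.41 ± 0.26 SE, adjusted p = 0.00135 (edgeR) and TT6 by −1.06 ± 0.25 SE, adjusted p = 0.00822. With bicarbonate TT4 averaged 279 ± 75.3 CPM in the triple line, against 413 ± 36.1 CPM with water, while in oePsbS it averaged 305 ± 26.8 CPM, against 169 ± 30.1 CPM (SD, n = 3 each). At adjusted p alone 9 members passed (13.1% of all genes), all with a lower response in the triple line, and DFR (−0.74 ± 0.55 SE, adjusted p = 0.399) was not among them. Omitting 1 library at a time, the count was 1 (oePsbS water replicate 2 or triple line bicarbonate replicate 2), 4 (triple line bicarbonate replicate 3) or 5 (oePsbS water replicate 1), and 2 or 3 in the other 8. For the double line minus oePsbS 0 were called by edgeR or DESeq2 and 0 at unadjusted p, with 2.13% of all genes called. PAL1 (−0.55), 4CL1 (−0.47) and TT4 (−0.91) passed adjusted p alone (8.06% of all genes). Without the library labelled double line bicarbonate replicate 3, 0 were called, PAL1 (−0.62) and 4CL1 (−0.48) passed adjusted p alone (5.53% of all genes), and TT4 did not (−0.90, adjusted p = 0.053, edgeR). For oePsbS minus Col-0 0 were called by edgeR, with 0.0211% of all genes called, 4 passed unadjusted p (1.97% of all genes) and DESeq2 called 2, TT4 and TT6 (0.0949% of all genes). TT4 was at 1.06 ± 0.26 SE, adjusted p = 0.0883 and TT6 at 1.02 ± 0.25 SE, adjusted p = 0.0956. KFB01 had a higher response in the triple line (1.51) and in the double line (1.94, and 2.07 without that library) than in oePsbS, and SEP2 in the triple line (3.49). All 7 floral markers had positive values in both differences (median 2.00 triple, 2.19 double), and their part was not tested. These differences share the oePsbS libraries, and each contains the contrast of its 2 genotypes with water, so it is not separate from that contrast.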

How the data were processed

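Salmon had been run by the authors on 30 paired-end, strand-specific mRNA libraries against the TAIR10 transcripts (Ensembl Plants release 41), and the deposited values are expected counts (estimated reads) per transcript, beside TPM. Estimated counts of 48268 transcripts were summed to 27588 genes and rounded. Each library held 15346368 to 18326430 estimated reads. Genes were filtered with filterByExpr (minimum count 10, minimum total 15), scaled by TMM and tested with edgeR 4.0.16 (quasi-likelihood F test, R 4.3.3) with Benjamini-Hochberg adjustment over all genes. Calls needed an adjusted p below 0.05 together with a log2 fold change past 1 in either direction. The study used DESeq2 for each genotype, and DESeq2 1.42.0 was run here as an alternative. Responses were fitted in the 6 libraries of a genotype. Genotype contrasts and differences of responses were fitted in all 30 libraries. The script was tested on simulated counts with the same spread for all genes, where the direction of each change was required to be right. That does not measure power or false calls at the spread of these members.

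The members and lists were chosen with earlier results of these data known. Values per library are given for called members (the 8 with the smallest adjusted p where more were called) and, between genotypes, for PAP1, TT4, DFR and MYBL2. Other members and libraries were named after their values were seen. Of the other lists, up to 3 called genes per comparison are named. Alternatives were RLE size factors, no filter, adjusted p alone, a replicate block, other libraries in the fit, length-scaled TPM counts and leaving out each library. The methods speak of biological samples without saying how plants were pooled, so p-values measure the spread between these samples. No 2 libraries held identical counts. PAP2, MYB113 and MYB11 had no estimated read in some libraries, which limits the precision of their values.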

Additional observations from a re-analysis of the deposited data

Results flagged for a closer look

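For 9 of 32 members the bicarbonate response differed between the triple line and oePsbS, where 13.1% of all genes did, by the test of the difference itself (edgeR, adjusted p alone). For the double line and oePsbS 3 of 32 members did, where 8.06% of all genes did, so that count is near the share of all genes. All were lower in the lines with added carbonic anhydrase constructs. Both sets use the same oePsbS libraries. In the triple line the log2 difference was −1.41 for TT4 (adjusted p = 0.00135), −1.06 for TT6 (adjusted p = 0.00822) and −0.61 for TT5 (adjusted p = 0.0176), which are early flavonoid enzymes, and −0.92 for the flavonol synthase FLS1 (adjusted p = 0.0346). The entry enzymes PAL1 and 4CL1 differed by −0.83 (adjusted p = 0.00112) and −0.49 (adjusted p = 0.00233). The decorating enzymes SCPL10, UGT78D2 and UGT78D1 differed by −0.97 (adjusted p = 0.0367), −0.64 (adjusted p = 0.0241) and −0.47 (adjusted p = 0.0388). In the double line minus oePsbS the differences were −0.91 for TT4 (adjusted p = 0.0293), −0.55 for PAL1 (adjusted p = 0.0217) and −0.47 for 4CL1 (adjusted p = 0.00648). Without the library labelled double line bicarbonate replicate 3 they were −0.90 for TT4 (adjusted p = 0.053, no longer passing), −0.62 for PAL1 (adjusted p = 0.0218) and −0.48 for 4CL1 (adjusted p = 0.0122).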

How the results depend on the processing

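The 28 member calls were recomputed in 348 alternatives that could change them, which leaves out dropping the fold threshold. They kept direction and call in 279, lost the call in 69 and reversed in 0. With adjusted p alone as the rule, the members counted were 20 in the triple line over oePsbS and 16 in oePsbS over Col-0 with water, 4 in npq4-1 over Col-0 and 2 in the double line over oePsbS with water. With bicarbonate they were 3 in the triple and 3 in the double line over oePsbS and 2 in the double line over Col-0. For the responses they were 11 in oePsbS and 2 in npq4-1, and for the differences 9 in the triple and 3 in the double line minus oePsbS. DESeq2 gave 3 in the Col-0 response (0.538% of all genes) and 2 in the npq4-1 response (FLS1 higher, UGT75C1 lower, 0.483%). It also gave 1 in the double line over oePsbS with bicarbonate (3.14%) and 2 in oePsbS minus Col-0 (0.0949%). With other libraries in the fit there was 1 in the triple line response (TT19), 1 in the double line over oePsbS with water (PAP1) and 1 with bicarbonate (UF3GT). The cause of these changes was not tested. With the replicate block the Col-0 response had 4 members called (DFR, LDOX, UF3GT and 5MAT), against 0 without it. The share of all genes called is not given for the block, for other libraries in the fit or for the omissions of a library. Member counts there are therefore not set against all genes. Correlations of same-numbered libraries were above 0.1 in 3 of 15 pairs between treatments of a genotype (−0.114 to 0.138). Between genotypes within a treatment they were above 0.1 in 16 of 60 pairs (−0.16 to 0.364). The numbers were not taken to pair the libraries, but low correlations in some pairs cannot show that the rest are unpaired. Whether same-numbered libraries were handled together was not tested. The counts of the other comparisons stayed within 1.5 times under the block.

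Leaving out each library gave 3 to 10 members in oePsbS over Col-0, 8 to 13 in the triple line over oePsbS, 0 to 3 in npq4-1 over Col-0 and 0 to 2 in the double line over oePsbS with water (2 without oePsbS replicate 1, PAP1 and UF3GT). With bicarbonate the triple and double lines over oePsbS each gave 0 to 1 (PAP1, without oePsbS replicate 1). The responses gave 0 to 7 in the triple line, 0 to 1 in npq4-1 and 0 to 1 in oePsbS (TT4, without water replicate 1). The differences gave 1 to 5 in the triple line minus oePsbS, 0 to 1 in the double line minus oePsbS (TT4, without water replicate 1 of either) and 0 to 3 in oePsbS minus Col-0 (3 without Col-0 bicarbonate replicate 3, 2 without oePsbS water replicate 1). Of the uncalled genotype differences of PAP1, TT4, DFR and MYBL2, 12 changed sign when a library was left out, and other uncalled members were not recomputed. With water, log2 fold changes ranged from −0.00989 to 0.52 for DFR and −0.13 to 0.0634 for MYBL2 in the triple line over Col-0, and from −0.0861 to 0.00594 for MYBL2 in the double line over oePsbS. With bicarbonate, TT4 ranged from −0.32 to 0.0437 in npq4-1 over Col-0, from −0.17 to 0.19 in oePsbS over Col-0, from −0.37 to 0.0625 in the triple line over Col-0 and from −0.36 to 0.0348 in the triple line over oePsbS. MYBL2 ranged from −0.00513 to 0.15 in oePsbS over Col-0. DFR and PAP1 ranged from −0.29 to 0.31 and from −0.35 to 0.23 in the double line over Col-0, and from −0.12 to 0.48 and from −0.0784 to 0.55 in the triple line over Col-0.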
